A study of Homo sapiens with 12 samples.

Results

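LRRTM1, LRRN3, FLRT3 and AMIGO3 encode neuronal adhesion proteins whose outer part is built of leucine-rich repeats, and they are 4 of the 14884 named genes measured here. They were chosen by gene symbol with their changes on these arrays already known. Their changes are therefore given with a standard error and without a test. Each is represented by 1 transcript cluster, a group of probes placed along the same transcript (16899533 for LRRTM1, 17050350 for LRRN3, 16917373 for FLRT3 and 16954154 for AMIGO3).

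The cells were SK-N-BE(2), a human neuroblastoma line with amplified MYCN, that is, a tumour line of the sympathetic nervous system. 3 arrays were made from cells given 1 µM JQ1 for 6 h, 3 from cells given 10 nM panobinostat for 6 h, 3 from cells given both compounds for 6 h (called the combination) and 3 from cells given vehicle for 6 h. JQ1 displaces BET bromodomain proteins from acetylated chromatin, and panobinostat is an inhibitor of histone deacetylases. Total RNA was read on Affymetrix Human Gene 2.0 ST arrays, and the values are taken as log2 signal. The labels do not say whether the arrays of a group came from separate cultures, so the errors and p-values cover the spread between these samples alone, and that spread may be technical. The measurements come from whole cultures, where fewer expressing cells and less RNA per cell cannot be told apart.

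A leucine-rich repeat is a short protein motif that folds into a curved solenoid, and rows of them on the cell surface hold partner proteins across the gap between neurons. LRRTM1 sits on the receiving side of excitatory synapses, where it binds neurexins. FLRT3 binds latrophilins and UNC5 receptors in axon guidance and cell migration, and it also contacts FGF receptors. LRRN3 is a transmembrane protein of the neuronal leucine-rich repeat family, a family that has been studied in neuroblastoma. AMIGO3 belongs to a small family of proteins that adhere to themselves and to each other, and in rat it can pair with the Nogo receptor.

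3 of the 4 genes lie inside much longer genes in the RefSeq annotation: LRRTM1 inside CTNNA2 on chromosome 2, LRRN3 inside IMMP2L on chromosome 7 and FLRT3 inside MACROD2 on chromosome 20. AMIGO3 lies within the span of RNF123 on chromosome 3. The stretch of 250 bases before each RefSeq start is shown because the 4 genes moved in different ways, and these windows show whether their starts look alike. The sequences are from RefSeq on GRCh38.p14, and all 4 symbols matched. The windows are chr2:80304753-80305002 for LRRTM1, chr7:111090877-111091126 for LRRN3, chr20:14337613-14337862 for FLRT3 and chr3:49719685-49719934 for AMIGO3, with LRRN3 on the plus strand and the others on the minus strand. They run 5′ to 3′ on the strand of the gene, in lower case. Capitals mark a CCAAT box (CCAAT) or a GC box (GGGCGG) on either strand.
LRRTM1: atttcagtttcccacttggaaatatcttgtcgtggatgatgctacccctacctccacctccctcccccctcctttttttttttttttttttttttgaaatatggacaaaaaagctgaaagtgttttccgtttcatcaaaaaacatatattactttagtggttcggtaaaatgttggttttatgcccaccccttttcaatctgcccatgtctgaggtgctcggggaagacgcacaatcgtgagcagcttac
LRRN3: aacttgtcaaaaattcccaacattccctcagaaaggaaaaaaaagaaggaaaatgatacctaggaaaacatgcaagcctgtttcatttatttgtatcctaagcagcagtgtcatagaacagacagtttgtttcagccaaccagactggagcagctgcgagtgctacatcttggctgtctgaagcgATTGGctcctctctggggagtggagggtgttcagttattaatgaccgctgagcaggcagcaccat
FLRT3: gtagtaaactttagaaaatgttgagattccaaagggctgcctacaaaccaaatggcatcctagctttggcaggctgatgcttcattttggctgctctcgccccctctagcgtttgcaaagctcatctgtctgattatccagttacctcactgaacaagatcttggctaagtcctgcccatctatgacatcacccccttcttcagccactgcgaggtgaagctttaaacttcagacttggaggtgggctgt
AMIGO3: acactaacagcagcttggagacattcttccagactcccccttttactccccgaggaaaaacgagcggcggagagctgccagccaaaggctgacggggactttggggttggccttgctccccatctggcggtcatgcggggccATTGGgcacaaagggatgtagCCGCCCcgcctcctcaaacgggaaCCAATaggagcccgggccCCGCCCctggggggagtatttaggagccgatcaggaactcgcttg

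The AMIGO3 window was 61.6% G and C, against 40.8% for LRRTM1, 44.8% for LRRN3 and 47.6% for FLRT3. The median over 35116 promoter windows of the same length was 58.0%. AMIGO3 had 14 CpG dinucleotides, LRRTM1 had 6, and LRRN3 and FLRT3 had 3 each, beside a median of 11. A CCAAT box was found 2 times in AMIGO3, starting 108 and 63 bases before the gene, and once in LRRN3 at 65 bases. Of all windows, 32.0% hold one. Both GC boxes were in AMIGO3, at 87 and 45 bases, and 42.6% of all windows hold one. No E-box (CACGTG, in 6.34% of windows), TATA box (TATAAA, 10.7%), AP-1 site (TGANTCA, 6.57%) or cAMP response element (TGACGTCA, 1.65%) was found in any of the 4, with both strands searched. The matches do not overlap one another, and a match is a description, not a site or a cause. The AMIGO3 window thus differed in base composition from the other three, and LRRTM1 and FLRT3 held none of the searched letters.

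The arrays correlated at 0.991 to 0.995 within groups and at 0.962 to 0.989 between groups over the named genes. All 11 measured markers of the adrenergic neuroblastoma state, of 13 listed, lay above the median gene on every vehicle array, PHOX2A, HAND2, GATA3, TH and DBH among them. So did SOX10, 1 of 4 measured markers of Schwann and glial cells, the macrophage marker CD68, which was the only leukocyte marker measured, and 4 of 7 mesenchymal markers. Calls rest on limma with Benjamini-Hochberg adjustment over all 14884 genes and a threshold of 0.05. With JQ1, 8.18% of all genes were called higher and 9.47% lower than with vehicle. With panobinostat these shares were 14.5% and 14.8%, or 1441 genes higher and 2310 lower when each array was first centred on its median, against 2161 and 2202 as deposited. With the combination they were 18.2% and 19.5%. Adrenergic markers were called lower in 3 of 11 cases and higher in 1 with JQ1, lower in 8 and higher in 0 with panobinostat, and lower in 11 and higher in 0 with the combination. Their summed log2 signal was 118.13 to 118.43 with JQ1, 114.0 to 114.53 with panobinostat, 111.66 to 111.79 with the combination and 119.03 to 119.39 with vehicle, with no marker listed at 0. The sums and the group means of LRRTM1 were both highest with vehicle and lowest with the combination. Between the single compounds the sums were lower with panobinostat, whereas the JQ1 and panobinostat arrays of LRRTM1 overlapped (-0.19 ± 0.11 for panobinostat against JQ1). LRRN3 did not follow the order of the sums, with a mean of 9.86 with JQ1 and 10.19 with panobinostat. The part of the markers in the values of LRRTM1 and LRRN3 was not tested. The 7 mesenchymal markers summed to 56.45 to 57.19 with the combination and 57.78 to 59.27 with vehicle. With the combination 2 of these 7 were called lower and 1 higher. The 4 glial markers summed to 25.88 to 26.56 with the combination and 25.41 to 25.93 with vehicle, ranges that overlap. CD68 was called higher with panobinostat and with the combination.

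LRRTM1 had the lowest signal with the combination. Its log2 signal was 9.89, 9.62 and 9.60 on the JQ1 arrays, 9.67, 9.40 and 9.46 on the panobinostat arrays, 8.04, 8.22 and 8.35 on the combination arrays, and 11.55, 11.61 and 11.59 on the vehicle arrays. All treated arrays lay below all vehicle arrays, all combination arrays lay below those of either compound alone, and the JQ1 and panobinostat arrays overlapped. Against vehicle, LRRTM1 was lower by 3.69-fold with JQ1 (log2 change -1.88 ± 0.11, SE, n = 3 arrays per group, as throughout), by 4.2-fold with panobinostat (-2.07 ± 0.11) and by 10.4-fold with the combination (-3.38 ± 0.11). In each of these comparisons 1 of the 14884 genes had a lower value than LRRTM1. The combination left 9.61% of the vehicle signal, JQ1 alone 27.1% and panobinostat alone 23.8%.

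LRRTM1 was lower with both compounds than with either alone. The combination stood at -1.5 ± 0.11 against JQ1 alone and at -1.31 ± 0.11 against panobinostat alone. Panobinostat against JQ1 was -0.19 ± 0.11, and -0.097 without JQ1 replicate 1. If the single changes simply added on the log2 scale, the combination would stand at -3.95, and the measured value was higher than that by 0.57 ± 0.15.

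LRRN3 was also lowest with the combination, with smaller changes than LRRTM1. Its log2 signal was 9.91, 9.80 and 9.86 with JQ1, 10.23, 10.13 and 10.20 with panobinostat, 8.56, 8.70 and 8.81 with the combination, and 10.90, 10.85 and 10.75 with vehicle. No 2 groups overlapped: the combination arrays were lowest, then JQ1, then panobinostat, then vehicle. LRRN3 was 1.97-fold lower with JQ1 (-0.98 ± 0.08), 1.57-fold lower with panobinostat (-0.65 ± 0.08) and 4.43-fold lower with the combination (-2.15 ± 0.08). Of the vehicle signal, 22.6% was left with the combination, 50.8% with JQ1 and 63.8% with panobinostat.

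Unlike LRRTM1, LRRN3 was lower with both compounds than its single changes sum to. The sum is -1.63, and the combination went beyond it by a log2 value of -0.52 ± 0.11. Against the single compounds, the combination was at -1.17 ± 0.08 (JQ1) and at -1.5 ± 0.08 (panobinostat). The value against panobinostat was rank 3 from the lowest among all genes. Panobinostat was above JQ1 by 0.33 ± 0.08.

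FLRT3 lay above vehicle with panobinostat alone and below it with the combination. Its log2 signal was 7.98, 8.24 and 8.15 with JQ1, 9.06, 9.11 and 9.36 with panobinostat, 7.60, 7.60 and 7.75 with the combination, and 8.71, 8.30 and 8.13 with vehicle. The combination arrays were below all others, the JQ1 and vehicle arrays overlapped, and the panobinostat arrays were above all others. FLRT3 was 1.74-fold higher with panobinostat (0.80 ± 0.14) and 1.66-fold lower with the combination (-0.73 ± 0.14), and it was at -0.26 ± 0.14 with JQ1. The vehicle arrays were the most spread group of this gene, with an SD of 0.30. Leaving out 1 array at a time gave -0.38 to -0.093 for JQ1 (the value nearest 0 without vehicle replicate 1), 0.675 to 0.963 for panobinostat and -0.851 to -0.564 for the combination.

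The difference between both compounds and panobinostat alone does not involve the vehicle arrays. It was -1.53 ± 0.14 for FLRT3, a 2.88-fold lower signal with the combination and rank 1 from the lowest among the 14884 genes. Against JQ1 alone the combination was at -0.47 ± 0.14, and panobinostat was above JQ1 by 1.06 ± 0.14. The single changes sum to 0.54, above vehicle, whereas the combination lay below vehicle. The departure from the sum was -1.27 ± 0.19, and 3 of the 14884 genes had a lower one.

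AMIGO3 was higher where JQ1 was present. Its log2 signal was 8.14, 8.22 and 8.22 with JQ1, 7.08, 7.0 and 6.99 with panobinostat, 8.51, 8.23 and 8.63 with the combination, and 6.7, 6.5 and 7.04 with vehicle. Arrays with JQ1, alone or in the combination, were all above those without it. The panobinostat and vehicle arrays overlapped, and the lowest combination array lay just above the highest JQ1 array. AMIGO3 was 2.73-fold higher with JQ1 (1.45 ± 0.13), which was rank 6 from the highest among all genes, and 3.28-fold higher with the combination (1.71 ± 0.13). With panobinostat it was at 0.28 ± 0.13, which became 0.157 without vehicle replicate 2 and 0.427 without vehicle replicate 3.

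For AMIGO3 the combination was close to the sum of the single changes, 1.71 against 1.73, a difference of -0.02 ± 0.18 that ranged from -0.165 to 0.105 when 1 array was left out. JQ1 added to panobinostat gave 1.43 ± 0.13, rank 4 from the highest. Panobinostat added to JQ1 gave 0.26 ± 0.13. The vehicle arrays spread most here too, with an SD of 0.27, against 0.04 with JQ1. In vehicle its mean of 6.74 lay below the median named gene (7.23 to 7.24), and its signal over background is unknown.

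**Figure D1:**
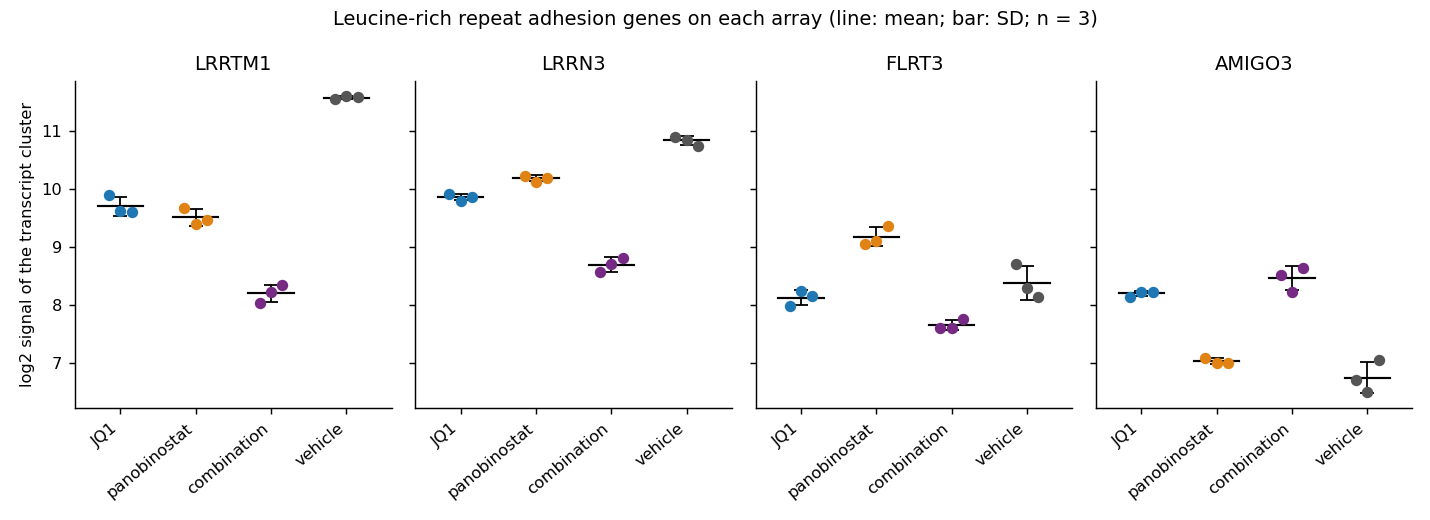
Log2 signal (y axis) of the 4 genes, 1 point per array, for JQ1, panobinostat, combination and vehicle (x axis), with the group mean as a line and the SD as a bar (n = 3). LRRTM1 and LRRN3 are highest with vehicle and lowest with the combination, FLRT3 is highest with panobinostat, and AMIGO3 is higher on the 6 arrays with JQ1.

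**Figure D2:**
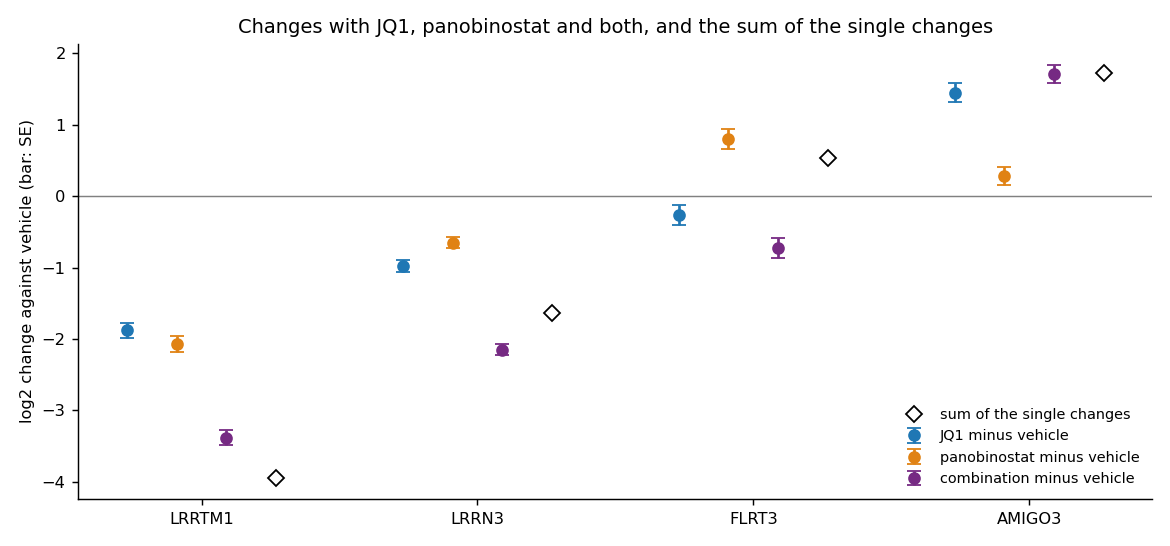
Log2 change against vehicle (y axis, bars: SE, n = 3 arrays per group) of the 4 genes (x axis) with JQ1, panobinostat and the combination, beside the sum of the single changes (open diamond). The combination lies above the sum for LRRTM1 (-3.38 against -3.95), below it for LRRN3 (-2.15 against -1.63) and FLRT3 (-0.73 against 0.54), and beside it for AMIGO3.

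The profiles of the 4 genes over the treated arrays were set beside each other and beside all other protein-coding genes. Each gene was centred on its own vehicle mean, and likeness was the root mean square difference over the 9 treated arrays, in log2 units. LRRTM1 and LRRN3 differed by 1.21, LRRN3 and FLRT3 by 1.25, and LRRTM1 and AMIGO3, the most distant pair, by 3.77. The closest profiles to LRRTM1 were those of TFAP2B, a neural crest transcription factor (0.35), DKK1, a secreted antagonist of WNT signalling (0.35), and NPY2R, a receptor for neuropeptide Y (0.61). The median protein-coding gene differed from LRRTM1 by 2.56. TFAP2B was at -1.41 with JQ1, -2.42 with panobinostat and -3.48 with the combination. DKK1 was at -1.74, -1.74 and -2.93 in the same order.

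LRRN3 was closest to VPS54, a subunit of a tethering complex at the Golgi (0.18), TOX, a nuclear protein with an HMG box (0.21), and STAMBPL1, a deubiquitinase (0.24), beside a median of 1.44. VPS54 stood at -1.03 with JQ1, -0.90 with panobinostat and -2.05 with the combination. FLRT3 was closest to PCDH18, a protocadherin and so another adhesion protein (0.26), ARL6IP5, a membrane protein of the endoplasmic reticulum (0.29), and GEM, a small GTPase that inhibits calcium channels (0.32). The median gene differed from FLRT3 by 0.70. PCDH18 was at -0.26 with JQ1, 0.40 with panobinostat and -0.62 with the combination, with the signs of FLRT3 and a smaller value than FLRT3 with panobinostat.

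AMIGO3 was closest to EFR3B, which anchors a lipid kinase at the plasma membrane (0.25), NPTX2, a secreted neuronal pentraxin (0.30), and HEXIM1, which holds P-TEFb inactive (0.30), beside a median of 1.31. EFR3B was at 1.47 with JQ1, 0.00 with panobinostat and 1.44 with the combination. Centring each array on its median kept all 12 of these genes in place, and quantile normalization kept 11, with NRIP3 in the place of HEXIM1.

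**Figure D3:**
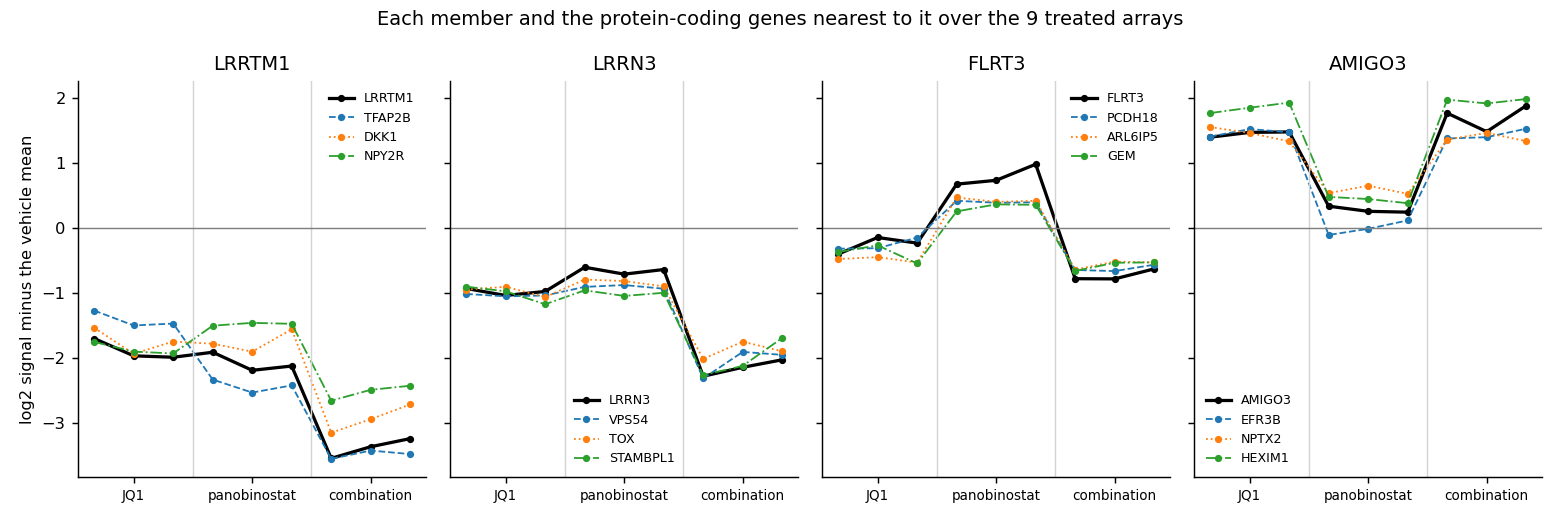
Log2 signal minus the vehicle mean (y axis) on the 9 treated arrays (x axis, 3 per group) for each of the 4 genes (solid black) and the 3 protein-coding genes nearest to it. Lines only join the points of 1 gene, and arrays within a group have no order. The profiles near FLRT3 lie above 0 with panobinostat, less far than FLRT3, and below 0 with the combination.

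The relatives in the same 4 families were tested in the fit across all genes. 9 of the 10 listed relatives were measured. In vehicle, only LRRN1 (8.11) and LRRN2 (7.38) had a mean log2 signal above the median named gene (7.23 to 7.24). FLRT1 and AMIGO1 were at 7.20 and 7.04, and LRRN4 at 6.54. LRRTM3, LRRTM4, FLRT2 and AMIGO2 were at 5.80, 5.27, 5.18 and 5.23, against 11.58 for LRRTM1 and 10.84 for LRRN3. With signal over background unknown, how far the dimmer relatives could fall cannot be told. Against vehicle, 3 of 9 fell and 0 rose with JQ1, 1 fell and 0 rose with panobinostat, and 4 fell and 0 rose with the combination. Over all genes 9.47%, 14.8% and 19.5% fell. The median change of the relatives was -0.19, -0.05 and -0.27, against 0.01, 0.03 and 0.02 over all genes.

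Neither measured LRRTM relative was called against vehicle with all 12 arrays. LRRTM3 was at -0.14 ± 0.17 with the combination (limma adjusted p = 0.582) and LRRTM4, a synapse organiser that binds glypicans, at 0.18 ± 0.12 (adjusted p = 0.255). With panobinostat LRRTM4 was at 0.24 ± 0.12 (adjusted p = 0.148), and without panobinostat replicate 2 it stood at 0.37 and was called (adjusted p = 0.0279). Of the LRRN relatives, LRRN1, which has been linked to growth of neuroblastoma cells, was at 0.17 ± 0.08 with JQ1 and -0.12 ± 0.08 with the combination (adjusted p = 0.198 and 0.269). Like LRRN3, it was lower with the combination than with JQ1 alone (-0.29 ± 0.08, adjusted p = 0.0195) and panobinostat alone (-0.27 ± 0.08, adjusted p = 0.0453). These 2 calls were not followed in other settings. Its departure from the sum of the single changes was -0.43 ± 0.11 and not called (adjusted p = 0.113). LRRN2 fell with JQ1 (-0.53 ± 0.11, adjusted p = 0.00679) and with both compounds (-0.49 ± 0.11, adjusted p = 0.00468), and was at -0.27 ± 0.11 with panobinostat (adjusted p = 0.1). That LRRN2 value was called after median centring (-0.32, adjusted p = 0.0351), without vehicle replicate 1 (-0.37, adjusted p = 0.0322) and without panobinostat replicate 1 (-0.36, adjusted p = 0.0417). LRRN4 fell with JQ1 (-0.52 ± 0.11, adjusted p = 0.00508) and with both compounds (-0.38 ± 0.11, adjusted p = 0.0126). Its value with panobinostat (-0.31 ± 0.11, adjusted p = 0.0448) lost its call in 10 of 17 other settings, namely in the fit on these groups only and without vehicle replicates 1 or 3, JQ1 replicate 3, any panobinostat array or any combination array, and its combination call ended without vehicle replicate 3 or combination replicate 2.

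FLRT1, a relative that acts with FGF receptors, fell with the combination (-0.52 ± 0.12, adjusted p = 0.00459). It was at -0.23 ± 0.12 with panobinostat (adjusted p = 0.183), where FLRT3 stood at 0.80. FLRT2, a ligand of UNC5D, was at 0.04 ± 0.15 with panobinostat and -0.01 ± 0.15 with the combination (adjusted p = 0.872 and 0.962). AMIGO1, an auxiliary subunit of Kv2 potassium channels, fell with the combination (-0.35 ± 0.07, adjusted p = 0.00123), where AMIGO3 stood at 1.71. With JQ1 its value was -0.25 ± 0.07 (adjusted p = 0.0207), a call that ended in 6 of 18 other settings, including without vehicle replicates 1 or 2 and JQ1 replicates 1 or 3. AMIGO2 was at -0.27 ± 0.12 with the combination (adjusted p = 0.103), and it was called after median centring (-0.31, adjusted p = 0.0492), after quantile normalization (-0.32, adjusted p = 0.0234) and without vehicle replicate 1 (-0.37, adjusted p = 0.0364).

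Among 28 measured genes for other leucine-rich repeat proteins of neurons, of 41 listed, 2 rose and 7 fell with JQ1, 5 rose and 7 fell with panobinostat, and 3 rose and 9 fell with the combination. Over all genes 8.18% rose and 9.47% fell with JQ1, 14.5% and 14.8% with panobinostat, and 18.2% and 19.5% with the combination, so the counts of higher genes with panobinostat and the combination were near or below those shares. Their median changes were -0.11, -0.07 and -0.12. LINGO4, of the family that works with Nogo receptors, had the lowest combination value of the list: it fell by 1.5 ± 0.16 with JQ1 (adjusted p = 0.000104), by 1.31 ± 0.16 with panobinostat (adjusted p = 0.000119) and by 1.75 ± 0.16 with the combination (adjusted p = 5.33e-06). The secreted guidance proteins SLIT2 and SLIT3, ligands of ROBO receptors, went opposite ways with the combination. SLIT2 rose by 1.69 ± 0.11 (adjusted p = 2.97e-07) and SLIT3 fell by 1.63 ± 0.13 (adjusted p = 1.49e-06). With the single compounds SLIT2 rose by 1.25 ± 0.11 (JQ1) and 1.43 ± 0.11 (panobinostat), and SLIT3 was at -1.07 ± 0.13 and -0.46 ± 0.13. The panobinostat value of SLIT3, with an adjusted p of 0.0171, lost its call without vehicle replicates 1 or 2 or panobinostat replicates 1 or 3. ISLR2, which acts in axon pathfinding, fell by 0.89 ± 0.10 with JQ1, 0.68 ± 0.10 with panobinostat and 0.98 ± 0.10 with the combination (adjusted p = 0.000113, 0.00032 and 8.98e-06). LRRC4C, named here after its values were seen and dim in vehicle (6.01), rose with panobinostat, as FLRT3 did (0.67 ± 0.13, adjusted p = 0.00184). With the combination it was at -0.18 ± 0.13 (adjusted p = 0.31), and at -0.85 ± 0.13 against panobinostat alone (adjusted p = 0.00115).

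The Nogo receptor RTN4R was at -0.05 ± 0.10 with JQ1, where AMIGO3 stood at 1.45, and at -0.28 ± 0.10 with the combination (adjusted p = 0.825 and 0.0406). The combination call ended in 9 of 18 other settings, including without vehicle replicates 1 or 2, JQ1 replicate 2, panobinostat replicate 3 or any combination array. LINGO1, another subunit of Nogo receptor complexes, was at -0.11 ± 0.10 with JQ1 and -0.18 ± 0.10 with the combination (adjusted p = 0.542 and 0.201).

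Binding partners of the 4 proteins and of their families were called in both directions. Of 12 measured partners, of 23 listed, 3 rose and 1 fell with JQ1, 2 rose and 3 fell with panobinostat, and 2 rose and 5 fell with the combination, with medians of 0.07, 0.06 and -0.07. The shares over all genes were 8.18% higher and 9.47% lower, 14.5% and 14.8%, and 18.2% and 19.5% in the same order. The netrin receptor UNC5C fell with panobinostat (-0.96 ± 0.07, adjusted p = 2.04e-06) and with both compounds (-1.67 ± 0.07, adjusted p = 1.23e-08), and was at 0.11 ± 0.07 with JQ1 (adjusted p = 0.313). UNC5D, which FLRT proteins bind, rose with JQ1 (1.04 ± 0.13), panobinostat (1.03 ± 0.13) and the combination (1.43 ± 0.13, adjusted p = 4.41e-06). UNC5B, bound by FLRT3, rose by 0.26 ± 0.06 with JQ1 (adjusted p = 0.0068) and fell by 0.31 ± 0.06 with the combination (adjusted p = 0.000815). UNC5A, named here after its values were seen, was at -0.34 ± 0.10 with the combination (adjusted p = 0.0219) and was not called with either compound alone.

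Of the latrophilins, the receptors that FLRT3 meets across the synapse, ADGRL2 fell with panobinostat by 0.47 ± 0.08 and with both compounds by 0.87 ± 0.08 (adjusted p = 0.000677 and 3.33e-06). ADGRL1, named here after its values were seen, was at -0.36 ± 0.07 with JQ1, 0.05 ± 0.07 with panobinostat and -0.34 ± 0.07 with the combination (adjusted p = 0.00357, 0.639 and 0.00213). ADGRL3, the latrophilin best known as an FLRT3 partner, was at 0.23 ± 0.08 with JQ1, -0.09 ± 0.08 with panobinostat and -0.09 ± 0.08 with the combination (adjusted p = 0.0666, 0.449 and 0.447). The JQ1 value of ADGRL3 was called after quantile normalization, without dim genes and without vehicle replicate 1 (adjusted p = 0.0334, 0.0295 and 0.034). FGFR1, an FGF receptor that FLRT proteins contact, rose with JQ1 (0.82 ± 0.07), panobinostat (0.45 ± 0.07) and the combination (0.73 ± 0.07, adjusted p = 4.3e-06). The neurexin genes NRXN2 and NRXN3, partners of LRRTM1 named here after their values were seen, were at 0.08 ± 0.14 and -0.03 ± 0.14 with the combination (adjusted p = 0.72 and 0.906).

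Synapse organisers without leucine-rich repeats rose more often than they fell. Of 21 measured genes, of 31 listed, 7 rose and 1 fell with JQ1, 7 rose and 1 fell with panobinostat, and 10 rose and 2 fell with the combination, with medians of 0.08, 0.26 and 0.28. Over all genes 8.18%, 14.5% and 18.2% rose. EFNB2, an ephrin ligand, rose by 1.37 ± 0.13 with JQ1, 0.70 ± 0.13 with panobinostat and 1.42 ± 0.13 with the combination (adjusted p = 4.42e-05, 0.00149 and 4.13e-06). CADM3, an immunoglobulin-type synaptic adhesion protein, rose by 1.41 ± 0.10 with the combination (adjusted p = 7.06e-07), or by 0.84 as the mean of its clusters, still called. Its JQ1 value was 0.58 ± 0.10 (adjusted p = 0.00219) and did not pass as the mean of its clusters (0.35, adjusted p = 0.0543). The ephrin receptor EPHB3 was higher by 0.92 ± 0.12 and CADM4, a relative of CADM3, by 0.75 ± 0.13 with the combination (adjusted p = 5.97e-05 and 0.000753).

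The interaction, that is, the combination change minus the sum of the single changes, was called higher for 0.309% of all genes and lower for 0.45%. It was called for 0 of 9 relatives, 1 of 28 other leucine-rich repeat genes, 2 of 12 partners and 0 of 21 synapse organisers, all lower. The called genes were SLIT2 (-0.99 ± 0.15, adjusted p = 0.0164), UNC5C (-0.82 ± 0.09, adjusted p = 0.00764) and FGFR1 (-0.55 ± 0.09, adjusted p = 0.0239). The FGFR1 call ended in 11 of 17 other settings, including without vehicle replicates 1 or 3, any JQ1 array, panobinostat replicates 1 or 3, or combination replicates 2 or 3. The adjusted p was 0.0515 to 0.0861 where the call ended, and 0.00572 to 0.0861 over all 17 settings. Some genes gained a call only in other settings. LINGO4, at 1.07 ± 0.23 (adjusted p = 0.0632), was called higher with the replicate block and without dim genes (adjusted p = 0.0437 and 0.0251). ISLR2, at 0.58 ± 0.14 (adjusted p = 0.0895), was called higher without dim genes (adjusted p = 0.0361). UNC5B (-0.34 ± 0.08) was called lower after quantile normalization and without dim genes, and IMMP2L (-0.62 ± 0.15) without vehicle replicate 1.

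**Figure D4:**
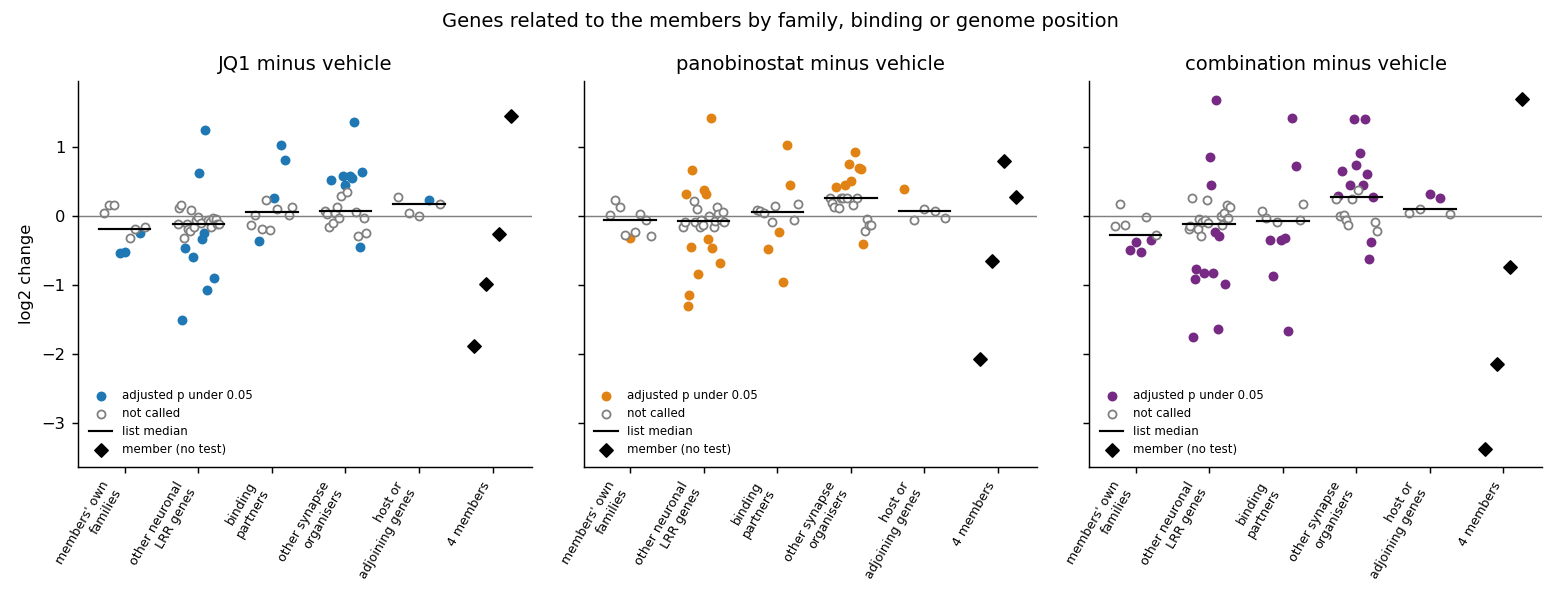
Log2 change against vehicle (y axis) of the genes in the 5 lists and of the 4 leucine-rich repeat genes (x axis), 1 panel per comparison, with filled points at an adjusted p under 0.05 in limma, open points for genes not called, and lines at list medians. The family relatives lie between -0.53 and 0.24 in the 3 panels. The 4 genes themselves (diamonds) span -3.38 to 1.71 with the combination. They were chosen with these changes known, so their wider span is not a finding. Of the relatives, only LRRN1 and LRRN2 had a vehicle mean above the median named gene.

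The genes that surround the 4 genes in the genome were read for the same comparisons. Of 5 measured genes that hold or adjoin one of the 4 or a relative, of 8 listed, 1 rose with JQ1, 1 with panobinostat and 2 with the combination, and 0 fell, where 8.18%, 14.5% and 18.2% of all genes rose. IMMP2L, a subunit of a mitochondrial inner membrane peptidase and the gene around LRRN3, was at 0.28 ± 0.10 with JQ1 and 0.05 ± 0.10 with the combination (adjusted p = 0.0902 and 0.773), where LRRN3 was at -0.98 and -2.15. Without vehicle replicate 1 the JQ1 value of IMMP2L was 0.38 and called (adjusted p = 0.0251). With panobinostat IMMP2L was at 0.39 ± 0.10 (adjusted p = 0.0148), a call that ended after median centring, after quantile normalization, with the arrays of these groups only, and without vehicle replicate 3 or panobinostat replicate 2. DOCK4, the next gene beyond LRRN3 and an activator of Rac, was at 0.14 ± 0.07, 0.25 ± 0.07 and 0.09 ± 0.07 with JQ1, panobinostat and the combination (adjusted p = 0.245, 0.0232 and 0.375). Its panobinostat call ended in 5 of 18 other settings, among them leaving out vehicle replicates 2 or 3 or panobinostat replicate 2.

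MACROD2, an ADP-ribose hydrolase gene that contains FLRT3, was at -0.06 ± 0.11 with panobinostat and 0.11 ± 0.11 with the combination (adjusted p = 0.762 and 0.491). SEL1L2 and KIF16B, the nearest genes on either side, were at -0.22 ± 0.16 and 0.32 ± 0.22 with panobinostat (adjusted p = 0.334 and 0.326). Without panobinostat replicate 1 KIF16B stood at 0.61 and was called (adjusted p = 0.0119), and over all other settings it ranged from 0.13 to 0.61. Of the genes around LRRTM1, CTNNA2 and SUCLG1 have no cluster named for them alone in the probe table used here and were not analysed. REG3A, which adjoins on the other side, was at 0.09 ± 0.11 with the combination (adjusted p = 0.581). MACROD1, the gene that holds FLRT1 in the same way, was at 0.03 with the combination.

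AMIGO3 shares its locus with RNF123, a ubiquitin ligase gene, which was at 0.23 ± 0.07 with JQ1 (adjusted p = 0.036) and 0.27 ± 0.07 with both compounds (adjusted p = 0.00838). The JQ1 call ended in 8 of 18 other settings, including without any 1 vehicle array or without JQ1 replicates 1 or 2, and the combination call ended after median centring (adjusted p = 0.0593). GMPPB, a mannose metabolism gene next to AMIGO3, was at 0.01 ± 0.12 with JQ1 and 0.33 ± 0.12 with the combination (adjusted p = 0.964 and 0.0418). That call ended in 11 of 18 other settings, among them leaving out vehicle replicates 2 or 3, any JQ1 array, panobinostat replicate 1, or combination replicates 2 or 3. MST1, on the other side, was at -0.15 ± 0.13 with the combination (adjusted p = 0.412). Whether the RNF123 and AMIGO3 clusters share probes was not analysed here.

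**Figure D5:**
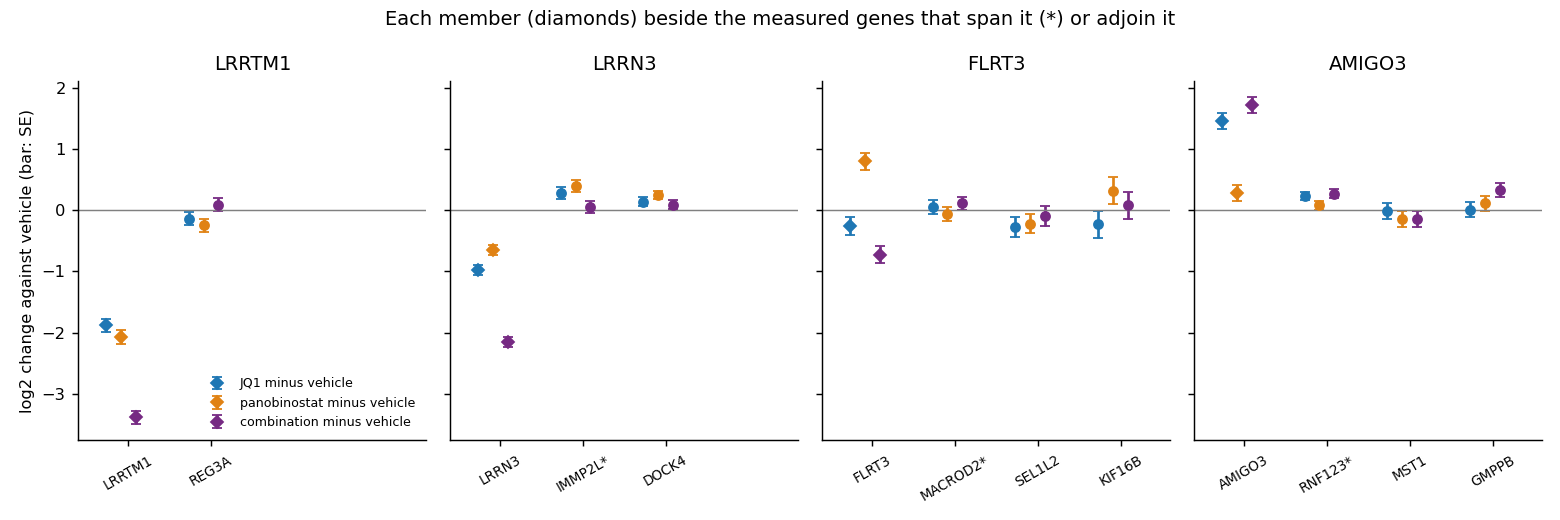
Log2 change against vehicle (y axis, bars: SE, n = 3 arrays per group) of each of the 4 genes (diamonds) and of the measured protein-coding genes that span it (asterisk) or adjoin it (x axis), with JQ1, panobinostat and the combination. The surrounding genes lie between -0.28 and 0.39. LRRTM1 reaches -3.38 and AMIGO3 reaches 1.71, but the 4 genes were chosen with their changes known, so this contrast is not a finding. MACROD2, SEL1L2, REG3A, IMMP2L and MST1 were dim, and the gene that spans LRRTM1 was not measured.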

How the data were processed

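Deposited was a table of 53617 transcript clusters by 12 arrays. The authors' deposited values are taken as log2 signal, since they run from 1.391 to 14.097 with 0 zeros, and the sources used here do not give the log base, background correction, summarisation, normalization or genome build. MAS5 and affy are named per the submitters' processing notes, without version or role. Array medians were 6.119 to 6.292. The number of arrays limits the precision, and signal over background is unknown.

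A probe table named 16098 clusters with 1 symbol each, and all 16098 Entrez identifiers matched RefSeq. The other 37519 clusters had no single symbol there and were not used as genes, and clusters named for several genes were among those set aside. Where a symbol had several clusters the one with the highest mean stood for it, giving 14884 genes. limma 3.58.1 in R 4.3.3 fitted 4 group means to all 12 arrays (8 residual degrees of freedom, prior 3.457), two-sided, called at an adjusted p under 0.05. It was tested on simulated data. With 3 arrays against 3, exact permutation reaches no p under 0.1.

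The members and lists were chosen with earlier results of these data known. Named were all relatives and surrounding genes, the 4 called genes of each other list with the largest combination change, up to 2 ligands or receptors per list, and the 3 genes nearest in profile. LRRC4C, ADGRL1, UNC5A, NRXN2 and NRXN3 were named after their values were seen and were not followed in other settings. Alternatives were median centring, quantile normalization, a replicate block, fits on 2 groups, cluster means, no dim genes (under the 40th percentile) and leaving out each array.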

Additional observations from a re-analysis of the deposited data

Results flagged for a closer look

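For 3 of the listed genes other than markers, the effect of one compound differed with and without the other, by limma's interaction term. The threshold was an adjusted p under 0.05 over all genes, and 113 of the 14884 genes passed it. The adrenergic marker PHOX2A was also called lower (-0.47 ± 0.09, limma adjusted p = 0.048), and its call was not followed in other settings. SLIT2 departed from the sum of its single changes by -0.99 ± 0.15, UNC5C by -0.82 ± 0.09 and FGFR1 by -0.55 ± 0.09. SLIT2 and FGFR1 rose with each compound and with both, and UNC5C fell with panobinostat and with both. The FGFR1 call ended in 11 of 17 other settings, among them median centring (adjusted p = 0.0527) and the replicate block (adjusted p = 0.0861), whereas the calls of SLIT2 and UNC5C ended in 0 of 17.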

How the results depend on the processing

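All 472 values of the 4 genes computed under other settings moved by less than 1 SD between replicates and kept their sign where the groups did not overlap. Of the named list genes and neighbours, 0 called values changed direction under other settings. A call was lost by 23 of 765 values and gained by 13, and by 58 and 11 of 1680 when 1 array was left out. Values that were not called could change sign, such as LRRTM3 with JQ1 (-0.07 to 0.21) and MST1 with JQ1 (-0.13 to 0.11). Family relatives called with panobinostat numbered 1, but 3 after median centring, 2 after quantile normalization and 0 in fits on these groups only. Without dim genes the count was 0, since LRRN4, the relative called, was left out of that fit as dim. The host genes called numbered 1 with JQ1, but 0 after centring, 0 with the replicate block and 0 in fits on these groups only. With panobinostat they numbered 1, but 0 after centring, 0 after quantile normalization and 0 on these groups only. Without dim genes that count was 0, since IMMP2L, the host gene called, was left out of that fit as dim. With the combination the host genes called numbered 2, but 0 after centring, 1 with the block and 1 on these groups only. The cause of the other shifts was not tested. Leaving out 1 array gave 2 to 4, 0 to 2 and 3 to 5 relatives with JQ1, panobinostat and the combination, and 0 to 1, 0 to 1 and 1 to 2 host genes. The interaction was called for 113 genes, against 41 after centring, 313 after quantile normalization, 48 with the block, 259 without dim genes and 28 to 86 without 1 array. With the replicate number as a block, LRRTM1 with the combination stayed at -3.38 (SE 0.11), but the numbers did not pair the arrays: deviations of same-numbered arrays from their group means correlated at -0.693 to 0.236, and 4 of 18 pairs were over 0.1. Signal over background limits the lower end of the scale and is unknown.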
